A study of Mus musculus with 12 samples.

Results

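Lmx1a and Lmx1b excitatory neurons were examined among the nuclei of the left hippocampus of female mice. Members were chosen by measured UMI counts: a nucleus was a member if it held 500 to 10000 detected genes, at least 1 unique molecular identifier (UMI, 1 captured RNA molecule) of Slc17a6, at least 2 UMIs of Lmx1a and Lmx1b together, fewer than 2 UMIs of Mobp, and none of Gad1, Gad2 or Nr5a1. This rule found 1170 members among 184957 retained nuclei, or 0.633% (exact Clopper-Pearson 95% interval 0.597 to 0.670%, counting error only). Single-nucleus RNA sequencing (snRNA-seq) of sorted nuclei in droplets, with 3′ tag counting, gave 12 libraries, each from 1 mouse. The groups were 3 3xTg-AD and 3 WT mice at 6 months and 3 of each at 12 months. The 3xTg-AD mice carry the APPSwe and tauP301L transgenes, which are driven by the Thy1 promoter, and a knock-in allele, on a mixed B6 and 129 background, and the WT mice were their littermates.

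Lmx1a and Lmx1b are LIM-homeodomain transcription factors that specify glutamatergic neurons of the posterior hypothalamus and subthalamic nucleus and dopamine neurons of the ventral midbrain. Slc17a6 encodes the vesicular glutamate transporter VGLUT2, which loads glutamate into synaptic vesicles in most excitatory neurons below the cortex. Nr4a2 (Nurr1) is a nuclear receptor of dopamine neurons and of some glutamatergic neurons, and Adcyap1 encodes the neuropeptide PACAP. These regions lie outside the hippocampus proper, where excitatory neurons use mainly Slc17a7.

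Lmx1a (chr1:167689237-167848741, GRCm38, plus strand) had 212, 282 and 306 CPM (UMIs of a gene per 1000000 UMIs summed over the members of a library) as the lowest, median and highest of 12 libraries, and Lmx1b (chr2:33560965-33640511, minus strand) 81.6, 94.0 and 125 CPM. Slc17a6 (chr7:51622006-51671119, plus strand) had 153, 193 and 238 CPM in members and 198, 228 and 257 CPM in the other Slc17a6 nuclei defined below. These levels follow from the rule and are given without a test.

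The 12 libraries held 79155331 to 128303515 UMIs in retained nuclei, and the summed members of a library held 407760 to 1636942 UMIs. Lmx1a alone was detected in 475 members, Lmx1b alone in 59 and both in 636. Of the members, 361 held exactly 2 Lmx1a and Lmx1b UMIs, and 638 nuclei with 1 such UMI lay just outside. Of the 361 just inside, 26.0% held Nr4a2 and 24.4% Adcyap1, against 14.6% and 17.7% of the 638 just outside. Median depth was 10014 UMIs in members, 8501 in those just inside and 8876.5 in those just outside. As a gauge of background, 9419 nuclei with at least 5 UMIs of Mobp, an oligodendrocyte gene, were examined, at a median of 2937 UMIs. Of them 43 held Lmx1a, 26 held Lmx1b and 31 (0.329%) held 2 or more Lmx1a and Lmx1b UMIs, and 6.12% held Slc17a6. Free RNA and doublets were not told apart in these nuclei. Of 180722 distinct barcodes, 4187 occurred in more than 1 library. Among the 1170 members, 0 barcodes were held by members of more than 1 library. How many members hold 1 of the 4187 barcodes was not counted.

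The label was checked against markers: the members were largely without the hippocampal transporter gene Slc17a7 and a minority held Nr4a2 or Adcyap1. Slc17a7 was found in 2.56% of members, Nr4a2 in 27.3% and Adcyap1 in 25.8%, against 16.7%, 4.41% and 8.57% of the other Slc17a6 nuclei (n = 28872, the same rule with no Lmx1a or Lmx1b UMI). After thinning to 3000 UMIs per nucleus, which left out 4 members and 1049 others, Nr4a2 remained in 11.1% against 2.19% and Adcyap1 in 10.6% against 3.64%. In the Mobp-rich nuclei 0.902% held Nr4a2 and 1.11% held Adcyap1. Both genes were named as markers of these nuclei with results of the data known, so these values are a description. The gate admitted nuclei with RNA of other cells: 676 members (57.8%) held at least 2 UMIs of the glial and vascular lists, and 74 (6.32%) at least 2 UMIs of the choroid plexus and ependymal list (Ttr, Folr1, Dnah12). Other Slc17a6 nuclei held such UMIs too. At least 2 of the astrocyte list were in 25.1% of members and 38.1% of others, and of the oligodendrocyte list in 17.9% and 15.3%. For the microglial list the shares were 7.35% and 4.65%, and 1.44% of others held 2 of the choroid plexus and ependymal list. Choroid plexus epithelium also uses Lmx1a, so results are given below with and without those 74 members where they differ. At least 2 UMIs of the serotonin neuron list were held by 1 member, in a 12-month 3xTg-AD library, where the list summed to 87.0 CPM.

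No difference between genotypes in the share of members was detectable within a wide spread between mice. At 6 months, replicates 1, 5 and 9 of 3xTg-AD held 82, 106 and 144 members, or 0.579%, 0.670% and 0.806% of their nuclei. The 6-month WT replicates 3, 7 and 11 held 101, 113 and 69 members, or 0.833%, 0.707% and 0.437%. At 12 months, 3xTg-AD replicates 2, 6 and 10 held 59, 55 and 138 members (0.392%, 0.350% and 0.697%), and WT replicates 4, 8 and 12 held 130, 42 and 131 (0.721%, 0.317% and 1.154%). The genotypes overlapped at both ages, and the lowest and the highest share both belonged to 12-month WT mice.

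Mean shares were 0.685% ± 0.114 (SD, n = 3) in 3xTg-AD and 0.659% ± 0.202 in WT at 6 months (two-sided exact permutation p = 1, the smallest possible being 0.1). At 12 months they were 0.479% ± 0.189 and 0.731% ± 0.418 (exact permutation p = 0.6). Over both ages, 3xTg-AD libraries averaged 0.582% ± 0.179 and WT libraries 0.695% ± 0.297 (n = 6 each, exact permutation p = 0.439). The 12-month libraries averaged 0.605% ± 0.321 and the 6-month libraries 0.672% ± 0.148 (exact permutation p = 0.667). The genotype difference at 12 months minus that at 6 months was -0.277 percentage points (exact permutation over 400 arrangements, p = 0.39), and adjusted p over these 5 tests was 0.833 or higher. With 3 mice per group, differences of the size seen could not be told from the spread between mice.

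**Figure D1:**
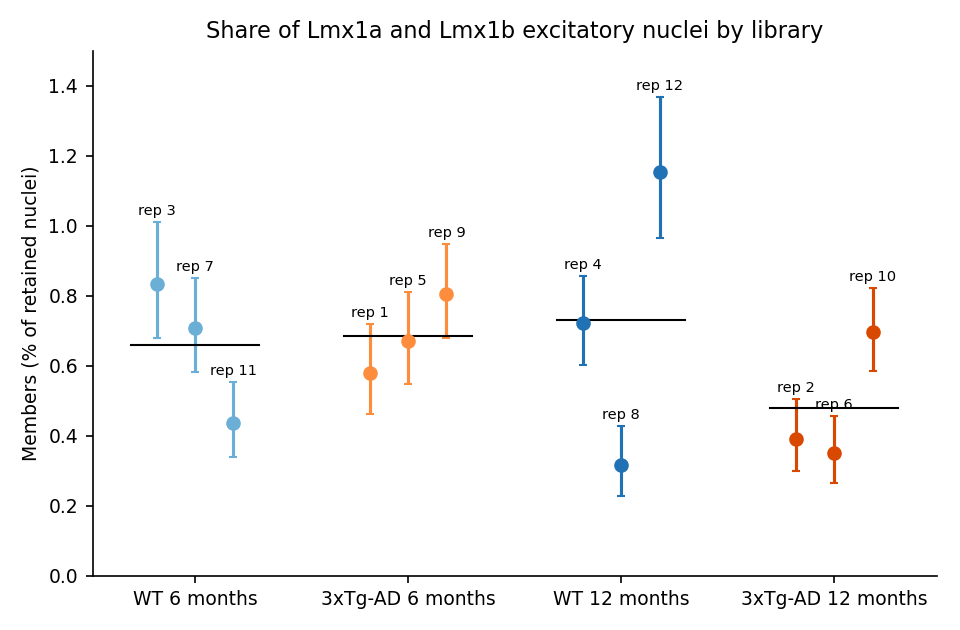
Share of members among retained nuclei, in percent, for each of the 12 libraries, with exact 95% binomial intervals (counting error only) and the mean of each group of 3 as a black line. The genotypes overlapped at both ages, and the 12-month WT libraries ranged from 0.317% to 1.154%.

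Neurons of this class lie outside the hippocampus proper, so their share was set beside those of other gated excitatory nuclei. The share of Tcf7l2-gated nuclei, a thalamic kind, ran from 5.99% to 13.1% of a library. That of Nr5a1-gated ventromedial hypothalamic nuclei ran from 0.0111% to 0.0505%. Prox1-gated nuclei, chosen by the hippocampal transporter gene Slc17a7 and at least 2 UMIs of Prox1 and not by Slc17a6, ran from 0.646% to 2.47%. Across the 12 libraries the members' share rose with the Prox1-gated share (Pearson r = 0.77, permutation p = 0.0041, adjusted p over 3 relations = 0.0123, and Spearman rho = 0.57, permutation p = 0.0590, adjusted p = 0.133). Without 12-month WT replicate 12 and 6-month WT replicate 11, the libraries farthest from the median, r was 0.60 (permutation p = 0.0807), so that p no longer passed, while the 6 3xTg-AD libraries alone, which hold neither, had r = 0.77 (exact permutation p = 0.117). With nuclei thinned to 3000 UMIs, r was 0.52 (permutation p = 0.0817), and for Tcf7l2-gated and Nr5a1-gated nuclei 0.083 (permutation p = 0.783) and 0.30 (permutation p = 0.352). Thinning left Nr5a1-gated nuclei only in 12-month WT replicate 4 (1) and 12-month 3xTg-AD replicate 10 (2), too few for their r to be read. Within an age or genotype, r for Prox1-gated nuclei was between 0.59 and 0.83 (n = 6 each, exact permutation p from 0.0583 to 0.317). For Tcf7l2-gated nuclei r was 0.49 (permutation p = 0.111) and rho 0.46 (permutation p = 0.133), with adjusted p of 0.111 and 0.133. For Nr5a1-gated nuclei r was 0.61 (permutation p = 0.0336) and rho 0.47 (permutation p = 0.126), with adjusted p of 0.0504 and 0.133, but they number only 52 in all. Without the 2 libraries farthest from the median, r was 0.55 for Tcf7l2-gated nuclei (permutation p = 0.102) and 0.66 for Nr5a1-gated nuclei (permutation p = 0.0451). Within an age or genotype, r ran from 0.15 to 0.77 for Tcf7l2-gated nuclei (exact permutation p from 0.0639 to 0.858) and from 0.58 to 0.82 for Nr5a1-gated nuclei (exact permutation p from 0.0667 to 0.256). All 3 relations use shares of 1 whole, so that nuclei of one kind displace those of another.

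Compared with the other Slc17a6 nuclei of the same libraries, members were higher in dopamine neuron genes and several noncoding RNAs and lower in thalamic and cortical genes, and regional transcription factors went both ways. Counts were summed over members and over other nuclei of each library, and calls needed both an adjusted p under 0.05 and a log2 fold change beyond 1 in size. Of 18491 genes tested, 1636 were called (8.85%), 777 (4.2%) higher and 859 (4.65%) lower in members, and 178 and 544 of these had the same sign in all 12 libraries. Without the 74 choroid plexus or ependymal members, 605 of 18443 (3.28%) were higher and 992 (5.38%) lower, and 537 of the 777 genes remained among the higher ones. Without the members with glial or vascular UMIs, 516 were higher and 1042 lower. DESeq2 size factors in edgeR (RLE) gave 853 higher and 797 lower and DESeq2 itself 875 and 753, so the larger direction depends on the setting. Where members were left out for their UMIs in this contrast, the other nuclei were kept whole. This lowers the genes used for leaving them out by construction, as for Slc1a2 (-1.07, and -4.23 without the members with glial or vascular UMIs). Of the 28872 other Slc17a6 nuclei, 16120 were also Tcf7l2-gated, a thalamic kind. Genes of the gating rule were left out of the test. Since the members were chosen with results of these data known, the counts describe these nuclei.

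The regional transcription factors divided sharply. Of 27 tested on the list for the posterior hypothalamus, subthalamic and mammillary regions and midbrain floor, 12 rose in members, 10 fell and 5 were not called, with a median log2 fold change of 0.12 against -0.01 over all genes tested. Foxa1, a forkhead pioneer factor, had 0 to 8.16 CPM (lowest to highest of 12 libraries) in members and 0 to 0.291 CPM in others (log2 fold change 5.15 ± 0.43 SE, adjusted p = 2.56e-11). En1, a midbrain homeodomain factor, followed at 0 to 16.5 against 0.0708 to 0.742 CPM (4.69 ± 0.34, adjusted p = 5.48e-13).

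Irx5 and Uncx, homeodomain factors, were higher in all 12 libraries, with 10.4 to 27.7 and 13.0 to 26.1 CPM in members against 2.16 to 4.003 and 2.49 to 5.29 CPM in others. Their log2 fold changes were 2.26 ± 0.17 and 1.93 ± 0.14. Ebf3, a helix-loop-helix factor, was higher by 1.23 ± 0.08 on the log2 scale, and 42.3% of members and 17.7% of others held it. Barhl1 (2.33 ± 0.32), Barhl2 (1.62 ± 0.25), Irx3 (2.30 ± 0.32), Pitx3 (2.88 ± 0.49) and Foxa2 (2.60 ± 0.67) rose too. Nr4a2, with 27.7 to 83.6 CPM in members and 4.77 to 11.6 CPM in others, was also among the 12 and belongs to the given markers.

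The 10 factors that fell were Sim1, Lhx9, Meis2, Nkx2-1, Lhx5, Lhx1, Foxb1, Irx2, Pou4f1 and Otp. Sim1, a factor of the paraventricular and mammillary regions, had 0 to 8.80 CPM in members and 13.2 to 40.1 CPM in others (log2 fold change -3.65 ± 0.25, adjusted p = 1.7e-13). Lhx9 (-3.41 ± 0.18), a factor of thalamic neurons, and Meis2 (-3.32 ± 0.15) were below the other nuclei in 12 of 12 libraries. All 4 genes of the mammillary list (Foxb1, Sim1, Lhx1, Nkx2-1) fell, with a median of -2.74, and Foxb1, Lhx1 and Nkx2-1 were at a median of 0 CPM in members.

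Among the called genes that were higher in 12 of 12 libraries, the 12 with the largest fitted log2 fold changes included several noncoding RNAs. C130021I20Rik, an antisense RNA that starts next to Lmx1b, had 4.90, 19.3 and 34.0 CPM in members and 0, 0.197 and 0.400 CPM in others. It led with a log2 fold change of 6.35 ± 0.29 (adjusted p = 5.35e-18). GENCODE places it at chr2:33641193-33646354 (GRCm38, plus strand), 681 bases from Lmx1b as annotated there, and 94 bases lie between it and the RefSeq start of Lmx1b. The 250 bases before that RefSeq start, chr2:33641099-33641348 on the minus strand (GRCm38.p6), are shown because both genes start from them, with the 156 bases that C130021I20Rik transcribes from the opposite strand in capitals:
Lmx1b promoter: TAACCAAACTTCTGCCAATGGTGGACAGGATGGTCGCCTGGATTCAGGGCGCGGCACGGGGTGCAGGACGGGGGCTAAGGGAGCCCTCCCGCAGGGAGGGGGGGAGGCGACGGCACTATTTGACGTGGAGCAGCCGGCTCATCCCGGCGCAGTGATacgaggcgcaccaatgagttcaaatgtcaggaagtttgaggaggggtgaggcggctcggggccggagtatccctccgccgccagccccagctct

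Ttc6, which encodes a tetratricopeptide protein and lies 17196 bases from Foxa1 on chromosome 12, had 99.6, 131 and 177 CPM in members and 1.80, 3.53 and 5.53 CPM in others (log2 fold change 5.10 ± 0.13, adjusted p = 1.17e-23). Foxa1 itself had far fewer UMIs. The antisense RNA 4921518K17Rik, 39058 bases from Foxa1, rose by 4.94 ± 0.27. The long noncoding RNA 9030622O22Rik, 2673 bases from Foxa2 on chromosome 2, had 17.2 to 78.8 CPM in members and 0.293 to 4.14 CPM in others (4.15 ± 0.23, and 2.14, still called, without the members that hold dopamine list UMIs, described below).

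Within 200 kb of the 14 factors that rose or belong to the rule, 17 of 64 tested genes (26.6%) were called higher, against 4.2% of all tested genes, and 17 stayed called without the choroid plexus or ependymal members, 14 without the dopamine list members and 15 without the members with glial or vascular UMIs. Some of the 17 rest on few UMIs: Irx3os had 9 in members and was higher in 5 and lower in 7 of 12 libraries, and Gm45336 had 7 and was higher in 4 and lower in 8. Crnde, a noncoding RNA 1504 bases from Irx5, had 10.4 to 36.0 CPM in members and a median of 3.89 CPM in others (2.29 ± 0.14). 2610027F03Rik, 13747 bases from En1, was higher in 9 of 12 libraries (3.90 ± 0.50, and 2.07, not called, without the dopamine list members). Lmx1a, Pitx3, Barhl2, Ebf3 and Nr4a2 had 0 called neighbours. This window was chosen after the values were seen, so the share is a description.

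The motif TAATTA, a core bound by many homeodomain proteins and its own reverse complement, occurred in 5.29% of 32851 promoter windows of 300 bases in RefSeq, from 250 before to 50 after the start. It was in 3.99% of the 13198 tested genes with such a window, in 5.86% of 529 called higher and in 5.03% of 596 called lower. Without the choroid plexus or ependymal members it was in 6.54% of 413 called higher. The 250 bases shown for Lmx1b do not hold it.

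Others of these 12 were Csf2rb2, Slc6a3, 5430401H09Rik, Cdh23, Slc10a4, Armc4 and Ntn1. Csf2rb2, a beta chain of the interleukin-3 receptor, had 11.4 to 32.5 CPM in members and at most 0.526 CPM in others (log2 fold change 6.24 ± 0.25). Cdh23, a cadherin of sensory hair cells, had 91.6 to 265 CPM against 2.07 to 12.2 (4.35 ± 0.21), and Ntn1, the axon guidance factor netrin 1, 13.1 to 128 against 5.59 to 8.66 (3.47 ± 0.14). Armc4, an axonemal dynein assembly factor, rose by 3.94 ± 0.21, and the noncoding RNA 5430401H09Rik by 5.03 ± 0.34.

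Dopamine neuron genes rose as a list, with 7 of 7 called higher and a median log2 fold change of 3.46. Slc6a3, the dopamine transporter, had 1.63, 17.0 and 90.2 CPM in members and 0.0593 to 1.20 CPM in others (5.44 ± 0.32, adjusted p = 3.77e-15). Th, which makes the dopamine precursor, had 0, 15.9 and 34.9 CPM against at most 1.58 (4.17 ± 0.31). Slc18a2, the vesicular monoamine transporter, and Ddc, the decarboxylase that makes dopamine, rose by 3.46 ± 0.13 and 3.44 ± 0.17.

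These genes were carried by a minority. Th was found in 71 members (6.07%), and 207 members (17.7%) held at least 2 UMIs of the dopamine list. Of the 71 Th members, 80.3% held Ddc, 77.5% Slc18a2, 69.0% Nr4a2 and 54.9% Slc6a3, against 10.5%, 18.2%, 24.6% and 2.09% of the other 1099. After thinning to 3000 UMIs, with Th itself counted anew, the shares were 78.1%, 75.0%, 25.0% and 37.5% against 7.41%, 9.44%, 10.8% and 2.20%. Members that lost their Th UMIs by thinning are then on the side without Th, so these are not shares of the same 71 and 1099. Since Slc17a6 and absent Gad1 and Gad2 are part of the rule, dopamine neurons without a Slc17a6 UMI are not among them. Without the 207 members, Slc6a3 had a log2 fold change of -0.51, Th -0.06, Slc18a2 0.28 and Slc10a4, a vesicular transporter relative of cholinergic and monoamine neurons, 1.40, none of them called, and Ddc was called lower (-1.19). Drd2 (0.08), Lepr (0.75), Ebf3 (0.99), Junb (0.92) and Vip (1.30) were no longer called either, and En1, Foxa2 and Pitx3 had too few counts to be tested. Without the members with glial or vascular UMIs, Foxa2 (1.74), Tacr3 (0.62), Drd2 (0.69), Vip (1.15) and Junb (0.91) were not called, nor were the lower genes Otp (-2.02), Tbr1 (-0.98) and Galr1 (-1.04). Removing nuclei by these very genes lowers the dopamine genes by construction.

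Of 21 genes tested on the neuropeptide list, which includes Nos1, 5 rose and 8 fell, with a median log2 fold change of -0.84. Over all tested genes 4.2% rose and 4.65% fell. Tac1, the precursor of substance P, had 22.0, 53.2 and 91.1 CPM in members and 7.66, 12.2 and 17.0 CPM in others (log2 fold change 2.01 ± 0.14, adjusted p = 2.56e-13). Nos1, the neuronal nitric oxide synthase, had 39.2 to 73.7 CPM against 11.2 to 21.3 (1.77 ± 0.11), and the ranges of both genes lay apart. Nts, neurotensin, rose by 1.26 ± 0.19 and Vip by 2.75 ± 0.56, although Vip was at a median of 0.716 CPM. Adcyap1 had 24.5 to 44.2 CPM in members and 8.58 to 15.4 CPM in others. Hypothalamic peptides of other nuclei fell, among them Oxt, oxytocin (-3.79 ± 0.27), Hcrt, orexin (-3.43 ± 0.37), and Avp, vasopressin (-2.31 ± 0.26), beside Trh, Cartpt, Pmch, Cck and Sst.

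Tac1 and Adcyap1 were found together in 100 members, 34.5% of the 290 with Tac1 and 33.1% of the 302 with Adcyap1. Among members without Tac1, 23.0% held Adcyap1. Thinned to 3000 UMIs, with Tac1 also counted anew, the shares were 17.4% with and 9.73% without Tac1.

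In the PACAP and cAMP pathway, 1 of 27 genes tested rose and 2 fell, near the shares over all tested genes (4.2% and 4.65%). The 1 that rose, Adcyap1, is a given marker. Vipr2, a receptor for VIP and PACAP, and Adcy8, a calcium-stimulated adenylyl cyclase, fell by 2.80 ± 0.18 and 1.00 ± 0.06 on the log2 scale, and Adcy8 lay just under the limit of 1, and was not called, without the dopamine list members. Adcyap1r1, the PACAP receptor PAC1, had 39.2 to 85.0 CPM in members and 29.5 to 39.3 CPM in others, with a log2 fold change of 0.53 ± 0.08, under the limit of 1.

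Of 20 peptide and hormone receptors, 5 rose and 2 fell, with a median of 0.49, against 4.2% higher and 4.65% lower over all tested genes. Htr2c, the serotonin 2C receptor, had 860 to 1627 CPM in members and 252 to 409 CPM in others (1.71 ± 0.09, adjusted p = 9.9e-17). Hcrtr2, the orexin 2 receptor, had 56.4 to 107 against 20.9 to 37.3 (1.26 ± 0.07), and Lepr, the leptin receptor, 16.5 to 40.4 against 6.71 to 13.8 (1.21 ± 0.11). Tacr3, the neurokinin 3 receptor, rose by 1.54 ± 0.17 and Drd2, a dopamine receptor, by 1.11 ± 0.17. Galr1 and Npy1r fell.

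None of 24 glutamate receptor genes rose, and 5 fell, against 4.2% higher and 4.65% lower over all tested genes. Grin2c, an NMDA receptor subunit, had 1.76 to 15.1 CPM in members and 34.1 to 65.4 CPM in others (log2 fold change -2.96 ± 0.15). Grm4, a presynaptic metabotropic receptor, fell by 1.83 ± 0.07, Grin2a by 1.19 ± 0.05 and Grm2 by 1.07 ± 0.17 on the log2 scale, each lower in 12 of 12 libraries. Of 21 pacemaking and firing channels, the potassium channels Kcnc2 (-1.20 ± 0.04) and Kcnq3 (-1.06 ± 0.05) fell and 0 rose, and of 9 immediate-early genes Junb rose (1.01 ± 0.15). These few calls do not set the channels or the immediate-early genes apart from the shares over all tested genes.

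Thalamic and cortical identity genes were low next to the other Slc17a6 nuclei, of which 16120 of 28872 were chosen by the Tcf7l2 gate too. Tcf7l2, a thalamic transcription factor, had 20.8, 53.7 and 84.3 CPM in members and 439, 479 and 587 CPM in others (-3.37 ± 0.11, adjusted p = 6.52e-21). Prkcd, a thalamic kinase, had 2.63 to 44.1 against 114 to 187 CPM (-3.49 ± 0.14), and Prox1, 2.45 to 27.7 against 57.3 to 79.0 (-2.20 ± 0.12). Slc17a7 had 0 to 7.73 CPM in members and 19.6 to 44.3 in others (-3.13 ± 0.21). All 3 thalamic genes tested (with Ntng1) and 4 of 5 hippocampal and cortical genes (with Tbr1) fell, as did the habenular genes Pou4f1 and Tac2 and the ventromedial hypothalamic genes Fezf1 and Nptx2. The habenular list as a whole (Gpr151, Tac2, Nwd2 and Pou4f1) was not low, at 104 to 281 CPM in members and 78.9 to 312 CPM in others. At least 2 UMIs of this list were held by 36.2% of members and 16.4% of others. Of 4 striatal genes, Ppp1r1b and Drd2 rose, and Ppp1r1b had -0.49 and was not called without the choroid plexus or ependymal members.

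Among the called genes that were lower in 12 of 12 libraries, 12 were taken by the size of their fitted log2 fold change. In members 8 of them had 0 UMIs, so that their folds are lower bounds against 3 UMIs over all members and do not rank them against measured genes. St14, the membrane protease matriptase, had 562 UMIs in other nuclei and was at least 8.26-fold lower, the noncoding RNA Gm15825 at least 6.44-fold and the antisense RNA Sox5os3 at least 4.60-fold. Gm34983, 4833412C05Rik, Sln (a calcium pump regulator), Adgrg5 and Eomes (a T-box factor) were at least 4.51-, 3.72-, 3.54-, 3.47- and 3.31-fold lower. Adgrd1, an adhesion receptor, had 6 UMIs in members and 6.11 to 17.6 CPM in others (log2 fold change -4.74 ± 0.33). Gm32067, Gm31946 and Fam83f had 3, 2 and 1 UMIs in members. Their pooled levels were 27.9-fold (exact 95% interval 9.52 to 135, counting error only), 27.3-fold (7.55 to 226) and 25.5-fold (4.56 to 1008) lower than in others.

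Choroid plexus and ependymal genes moved with the members as a measured fact. Their summed level was 2.45 to 609 CPM in members and 3.02 to 42.5 CPM in others. Ttr and Folr1 were called higher, by 4.09 ± 0.25 and 3.81 ± 0.47 on the log2 scale, and 0 of the 2 genes of this list still tested were called once the 74 members were left out (Ttr, -0.75). That loss follows by construction. The 74 were chosen by these very genes, and the 1.44% of other nuclei with at least 2 such UMIs were kept. Astrocyte genes were lower in members (66.9 to 278 against 220 to 358 CPM, Slc1a2 and Gja1 of 5 called lower), and of the oligodendrocyte, microglial and vascular lists 1 gene each fell (Mog, Csf1r, Flt1), with 0 called higher in any glial or vascular list. Without the dopamine list members Gja1 (-0.84) and Csf1r (-1.40) were not called, while Slc1a2, Mog and Flt1 were. Tph2 of the serotonin list was called higher (2.48 ± 0.81), with up to 68.1 CPM in 1 library and a median of 0. It had 0.44 and was not called without the members with glial or vascular UMIs, and had too few counts to be tested without the dopamine list members.

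**Figure D2:**
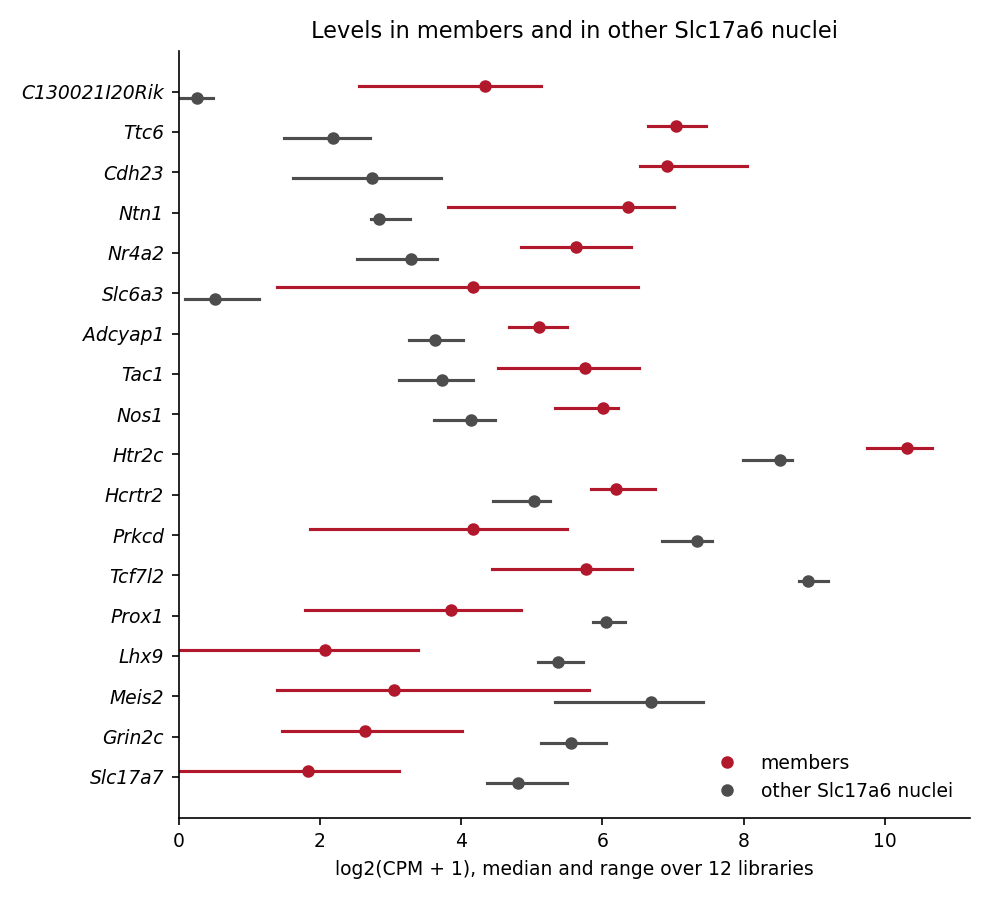
Level of 18 genes in members (red) and in other Slc17a6 nuclei (grey), as log2(CPM + 1) of counts summed by library, with the median as a point and the lowest and highest of 12 libraries as a line. The ranges lie apart for Ttc6, Tac1 and Htr2c, higher in members, and for Tcf7l2 and Prkcd, lower in members.

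Members differed among themselves, and those with Nr4a2 (319 members with at least 1 UMI) were compared with those without. Members with Nr4a2 had a median of 11213 UMIs and those without 9684. Sums of both kinds within each library were compared as before, with the library as a block. Nr4a2 chose the kinds and was left out of the contrast, and UMIs missed at this depth put some nuclei in the wrong kind.

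Members with Nr4a2, compared in the 10 libraries with at least 10 nuclei of each kind, had 77 of 9431 genes called higher (0.816%) and 72 lower (0.763%). All 5 dopamine list genes tested were higher. Ddc had 26.8, 142 and 338 CPM with Nr4a2 and 7.42, 28.6 and 49.01 CPM without, higher in 10 of 10 libraries (2.42 ± 0.25, adjusted p = 7.07e-07). Slc18a2 rose by 2.01 ± 0.17 and Ret, the receptor kinase of the GDNF family, by 1.22 ± 0.18 and Gfra2, one of its co-receptors, by 1.17 ± 0.15. Igf1 (1.36 ± 0.23), Mcc (1.61 ± 0.14) and 1700042O10Rik (2.60 ± 0.22) rose too, as did Rell1, Adra1a and Klhl1, by 1.41, 1.16 and 1.13, and Chd7 and Galnt18. Slc6a3 and Th had log2 fold changes of 3.23 ± 0.41 and 2.89 ± 0.33. Of 6 immediate-early genes tested, Nr4a3, Fos, Egr1 and Npas4 were called higher, with 2.80 for Nr4a3 and 1.86 for Fos. Nr4a2 itself is induced by activity. Of the 12 higher genes named here, 12 stayed called without the choroid plexus or ependymal members. Without the members that hold glial or vascular UMIs, 5 libraries were left and 63 genes were called, and Mcc and Galnt18 of the 12 kept their call. Ddc (1.74), Slc18a2 (0.85), Ret (0.14), Igf1 (1.11), Gfra2 (1.13), Adra1a (0.91), Klhl1 (0.96, adjusted p by edgeR 0.0018, under the limit of 1), Chd7 (0.54) and 1700042O10Rik (1.48) were not called, Th had 1.07 and Egr1 0.75 without a call, and Rell1, Slc6a3, Nr4a3, Fos and Npas4 had too few counts to be tested. Without the dopamine list members 7 of the 12 stayed called, Ret (0.48), Igf1 (1.10) and Npas4 (1.24) were not called, and Ddc, Slc18a2, Slc6a3, Th and 1700042O10Rik had too few counts.

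Cdh23 was lower with Nr4a2, at 0, 19.3 and 53.6 CPM against 119, 160 and 214 CPM (-3.11 ± 0.24, adjusted p = 1.61e-08), and the ranges did not overlap. Ntng2 (18.3 to 36.5 against 66.9 to 170 CPM, -2.30 ± 0.14), Gm43824 (-2.26 ± 0.46), the semaphorins Sema3a (-2.03 ± 0.18) and Sema3d (-1.36 ± 0.23), the neuropeptide S receptor Npsr1 (-1.80 ± 0.22) and the receptor kinase Kit (-1.33 ± 0.31) were lower as well. Htr2c, high in members as a whole, had 262 to 1177 CPM with Nr4a2 and 977 to 2083 CPM without (-1.33 ± 0.15). Pappa2, Spef2, C1ql3 and Gpc5 fell by 1.78, 1.72, 1.71 and 1.41. Of these 12 lower genes, 7 kept their call without the members with glial or vascular UMIs (Cdh23, Ntng2, Sema3a, Npsr1, Gpc5, Sema3d and Htr2c), C1ql3 had -2.41 and was not called, and Gm43824, Pappa2, Spef2 and Kit had too few counts to be tested. Without the dopamine list members Kit had -1.02 and was not called and Gm43824 was not tested, and without the choroid plexus or ependymal members Spef2 was not tested.

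**Figure D3:**
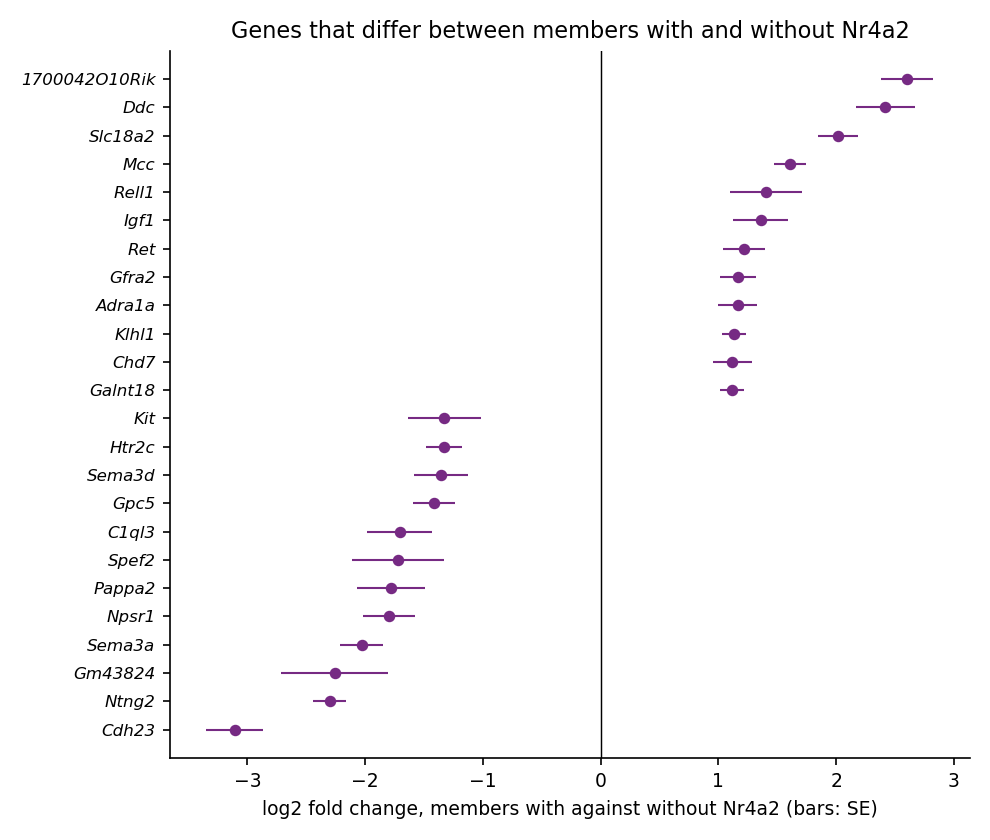
log2 fold changes with SE for the 24 genes named in the contrast between members with and without Nr4a2, all of them called. Cdh23 lies at -3.11 and Ddc at 2.42.

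The make-up of the members varied between mice, with differences between ages that did not pass the correction. Nr4a2 was found in 24.5 to 40.6% of members in the 6-month libraries (mean 30.2% ± 5.97, SD, n = 6) and 11.9 to 29.0% at 12 months (21.03% ± 7.07, exact permutation p = 0.0433). At least 2 dopamine list UMIs were held by 15.9 to 25.7% (20.8% ± 3.72) and 8.397 to 20.3% (14.3% ± 4.82, exact permutation p = 0.0260). The ages overlapped in each measure, and adjusted p over the 8 tests run was 0.115 for both, so that neither passed. Between genotypes the Nr4a2 means were 24.9% in 3xTg-AD and 26.3% in WT (p = 0.792 by exact permutation) and dopamine means 19.2% in 3xTg-AD and 15.9% in WT (exact permutation p = 0.312). Choroid plexus or ependymal members made up 0 to 17.4% of a library's members, with means of 3.44% at 12 months and 7.31% at 6 months (exact permutation p = 0.171). These tests were added after the values were seen.

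**Figure D4:**
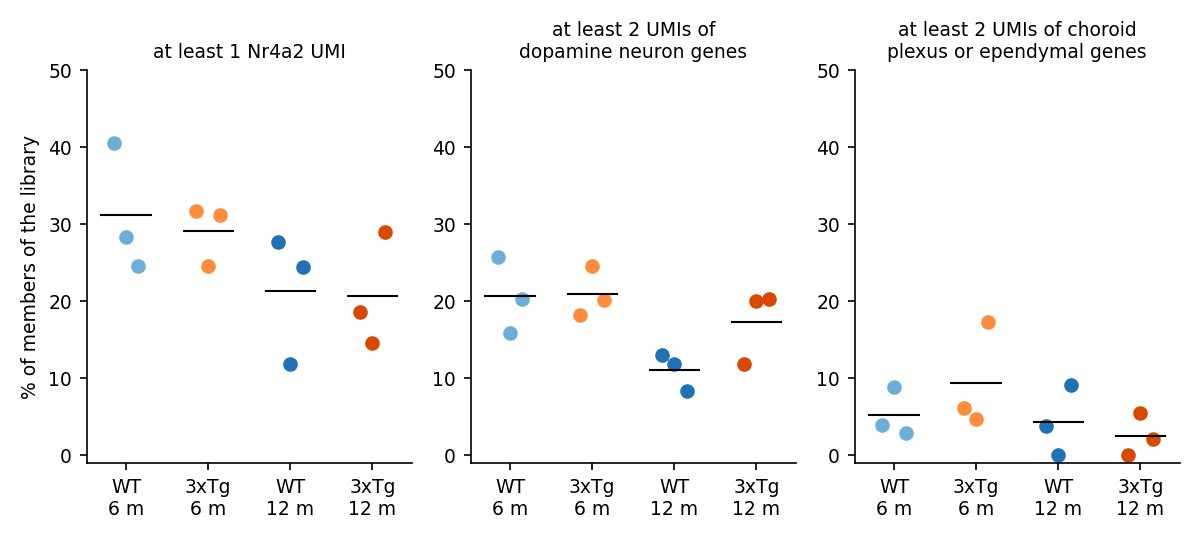
Percent of a library's members with Nr4a2, with at least 2 UMIs of the dopamine neuron list and with at least 2 UMIs of the choroid plexus and ependymal list, 1 point per library and the mean of each group of 3 as a line. The Nr4a2 share ran from 11.9% to 40.6% and the choroid plexus share from 0 to 17.4%.

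Few genes differed between 3xTg-AD and WT members. App and Mapt, the mouse genes of the transgenes, gave no call for genotype: App averaged 668 CPM ± 26.6 (SD, n = 3) in 3xTg-AD and 656 ± 26.3 in WT at 6 months, and Mapt 367 ± 2.25 and 423 ± 33.7. Human and mouse transcripts were not told apart by this alignment to the mouse genome, so these values do not check the labels. None of App, Mapt and Thy1 was called at either age. Between groups of libraries, calls needed the same adjusted p and a log2 fold change beyond 0.2 in size.

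At 6 months, 9 of 10244 tested genes were called (0.0879%), 2 higher (0.0195%) and 7 lower (0.0683%) in 3xTg-AD, and for 12.1% of tested genes the genotypes did not overlap. Rnf152, a lysosomal ubiquitin ligase, had 235, 190 and 266 CPM in 3xTg-AD replicates 1, 5 and 9 and 59.9, 80.3 and 61.8 CPM in WT replicates 3, 7 and 11. All 3xTg-AD values were above all WT values (log2 fold change 1.81 ± 0.15, adjusted p = 8.32e-06). The antisense RNA Arhgap33os had 16.5, 18.4 and 15.9 CPM against 1.32, 0.864 and 0 (adjusted p = 0.00152). These are 62 UMIs against 3, with a pooled level in WT 18.6-fold lower (exact 95% interval 6.09 to 92.8).

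AC149090.1, a feature with no position in GENCODE vM21, had 244, 214 and 146 CPM in 3xTg-AD and 772, 951 and 1232 CPM in WT (-2.26 ± 0.18, adjusted p = 6.88e-06). Cfap54, a ciliary axoneme protein, had 62.7, 60.6 and 67.8 CPM against 138, 127 and 136 (-1.03 ± 0.13, adjusted p = 0.00103). Gm49980, a noncoding RNA, had 0 UMIs in all 3 3xTg-AD libraries and 25, 26 and 14 in WT, at least 24.0-fold lower against 3 UMIs over the group. Gm17167, another noncoding RNA, had 0, 1 and 0 UMIs in 3xTg-AD and 33, 12 and 9 in WT. At 12 months both had 0 UMIs in 3xTg-AD, against 14, 0 and 11 UMIs of Gm49980 and 19, 5 and 8 of Gm17167 in WT, with too few counts to be tested. At 6 months the genotypes lay apart for each of them.

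Abca6, a lipid transporter of the ABC family, had 4.40, 6.14 and 3.67 CPM in 3xTg-AD and 21.7, 19.9 and 34.0 in WT (-2.32 ± 0.37, adjusted p = 0.0127). Rnps1, an RNA-binding protein of splicing, had 20.9, 24.6 and 27.5 CPM against 57.3, 64.8 and 57.2 (-1.24 ± 0.19, adjusted p = 0.00707). The noncoding RNA 6330411D24Rik had 110.0, 91.3 and 97.1 CPM against 177, 198 and 165 (-0.84 ± 0.12, adjusted p = 0.00683).

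Without WT replicate 3, 19 genes passed, and without the choroid plexus or ependymal members 14 did. Without the members with glial or vascular UMIs, 6 of 6753 tested genes were called, and 4 of the 9 genes above kept their call. In the other Slc17a6 nuclei of the same libraries, the means of 9 of the 9 genes differed in the same direction (not tested there). Rnf152 averaged 388 CPM ± 27.0 (SD, n = 3) in 6-month 3xTg-AD and 114 ± 11.2 in WT in them, Cfap54 38.3 ± 1.60 and 97.9 ± 2.87, Gm49980 0.125 ± 0.0472 and 18.7 ± 3.997, and AC149090.1 173 ± 35.1 and 826 ± 166.

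At 12 months, 7 of 9801 genes were called (0.0714%), 2 higher (0.0204%) and 5 lower (0.051%) in 3xTg-AD, and the genotypes did not overlap for 10.9% of tested genes. Cfap54 was called at both ages, with 58.8, 88.9 and 60.8 CPM in 3xTg-AD replicates 2, 6 and 10 and 127, 152 and 163 CPM in WT replicates 4, 8 and 12 (-1.09 ± 0.18, adjusted p = 0.0103). Zfp846, a zinc finger gene, had 47.3, 49.2 and 55.1 CPM in 3xTg-AD and 17.1, 19.6 and 17.4 in WT (1.55 ± 0.24, adjusted p = 0.0103). The antisense RNA Gm15594 had 26.1, 41.6 and 38.7 CPM against 8.22, 12.3 and 6.70 (2.12 ± 0.34, adjusted p = 0.0103). At 6 months Gm15594 had 1.92 ± 0.36 (adjusted p by edgeR 0.0584) and Bet1 -1.45 ± 0.29 (adjusted p 0.0584), not called, and the genotypes did not overlap for either.

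Thsd4, an ADAMTS-like protein of microfibrils, had 17.95, 15.1 and 16.5 CPM in 3xTg-AD and 95.9, 76.0 and 50.2 in WT (-2.15 ± 0.30, adjusted p = 0.00937). Bet1, a SNARE of transport from the endoplasmic reticulum to the Golgi, had 9.79, 15.1 and 12.2 CPM against 33.6, 44.1 and 50.9 (-1.77 ± 0.29, adjusted p = 0.0103). Fancc, of the Fanconi anaemia repair pathway, had 26.1, 17.03 and 15.03 against 58.2, 41.7 and 68.98 (-1.66 ± 0.27, adjusted p = 0.0103). Npas2, a circadian transcription factor, had 14.7, 22.7 and 20.04 against 50.02, 61.3 and 44.9 (-1.37 ± 0.25, adjusted p = 0.0466). Across the alternatives tried Npas2 kept its call in 6 and lost it in 8, while Thsd4 kept its call in 13 and lost it in 1. The genotypes did not overlap for these 7 genes. In the other Slc17a6 nuclei the means of 7 of the 7 differed in the same direction, with Gm15594 at 77.6 ± 13.5 CPM (SD, n = 3) in 3xTg-AD and 15.3 ± 1.35 in WT, Bet1 at 11.3 ± 1.85 and 32.1 ± 4.49 and Thsd4 at 26.4 ± 2.80 and 69.8 ± 9.74. Without the members that hold glial or vascular UMIs, only 5460 genes had enough counts to be tested, and edgeR called 0. Without 3xTg-AD replicate 10, 0 genes passed, and without 3xTg-AD replicate 6, 19 did.

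Of the genes that mark members beyond the rule, Adcyap1 had log2 fold changes of 0.18 and -0.06 at 6 and 12 months, Nr4a2 -0.19 and 0.14 and Tac1 -0.27 and 0.01. No gene of any of the fixed lists was called for genotype at either age.

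The effect of genotype differed with age for 3 of 11024 genes tested (0.0272%), with 2 differences above 0 (0.0181%) and 1 below (0.00907%). AC149090.1 was lower in 3xTg-AD at 6 months but not at 12, where it had 462, 570 and 883 CPM in 3xTg-AD and 751, 387 and 627 CPM in WT (difference of log2 fold changes 2.36 ± 0.34, adjusted p = 0.006). Zfp846 had 50.6, 39.5 and 52.5 CPM in 3xTg-AD and 50.05, 51.8 and 44.8 in WT at 6 months (difference 1.56 ± 0.27, adjusted p = 0.0305). Both varied in the other Slc17a6 nuclei too, where the interaction was not tested. There AC149090.1 averaged 173 CPM in 3xTg-AD and 826 in WT at 6 months, and 595 and 546 at 12 months. The Zfp846 means there were 41.6 and 34.3 CPM at 6 months and 43.7 and 19.2 at 12 months. Of 20 alternatives tried for each gene, AC149090.1 lost its call in 1, Tcf7l2 in 10 and Zfp846 in 15, with no change of direction.

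Tcf7l2, the third, had 57.2, 73.7 and 75.8 CPM in 3xTg-AD and 31.0, 51.8 and 30.9 in WT at 6 months, and 26.1, 41.6 and 20.8 against 84.3, 76.0 and 55.6 at 12 months (difference -2.28 ± 0.37, adjusted p = 0.0192). The genotypes lay apart at both ages, in opposite order. Members hold little Tcf7l2 next to other Slc17a6 nuclei, which averaged 476 to 514 CPM in the 4 groups. Without the 676 members that hold glial or vascular UMIs, the Tcf7l2 difference was -1.36 and not called. Leaving out 12-month 3xTg-AD replicate 10 left 0 of the 3 calls by edgeR, with differences of 2.06 for AC149090.1, 1.501 for Zfp846 and -1.95 for Tcf7l2, and leaving out any 1 of 5 other libraries left 1 call. Without 6-month WT replicate 3, 2 genes were called, but only 1 of these 3, AC149090.1, was among them.

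Between 12 and 6 months, 0 of 10720 genes were called in WT members by edgeR, with 469 at an unadjusted p under 0.05, and DESeq2 called 0. Leaving out WT replicate 7 or 8 gave 1 or 2 calls, and 1 fit of all 12 libraries gave 4. Whether the change with age differs between the genotypes is what the interaction above tests. In 3xTg-AD members 9 of 9860 were called (0.0913%), 3 higher (0.0304%) and 6 lower (0.0609%) at 12 months. In 1 fit of all 12 libraries AC149090.1 and Rnps1 were still called and 0 of the 6 lower genes, by edgeR, and without the members with glial or vascular UMIs the 1 call was AC149090.1. DESeq2 called 3 (AC149090.1, Sv2c and Mcc). AC149090.1 (1.69 ± 0.19), Rnps1 (1.18 ± 0.21) and Abca6 (2.08 ± 0.40) rose. Sv2c, a synaptic vesicle protein, had 56.1, 71.1 and 66.0 CPM at 6 months and 13.1, 32.2 and 22.2 at 12 months (-1.56 ± 0.23, adjusted p = 0.00628). Slc7a11, the cystine and glutamate antiporter, had 14, 19 and 19 UMIs at 6 months and 0, 1 and 2 at 12 months (adjusted p = 0.0242), with a pooled level 11.9-fold lower (exact 95% interval 3.86 to 59.8).

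Mcc fell by 0.81 ± 0.13, Tcf7l2 by 1.38 ± 0.23 (-0.31 and not called without the members that hold glial or vascular UMIs), Sntb1, a syntrophin, by 2.09 ± 0.39 and Thsd4 by 1.46 ± 0.28 on the log2 scale. Mcc was also higher in members with Nr4a2, and Sv2c and Mcc were not called once the members with 2 dopamine list UMIs were left out (log2 fold changes of -1.06 and -0.41). Whether the make-up of the members has a part in these changes was not tested. Leaving out 3xTg-AD replicate 10 of the 12-month group left 1 call, and leaving out replicate 6 gave 36.

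**Figure D5:**
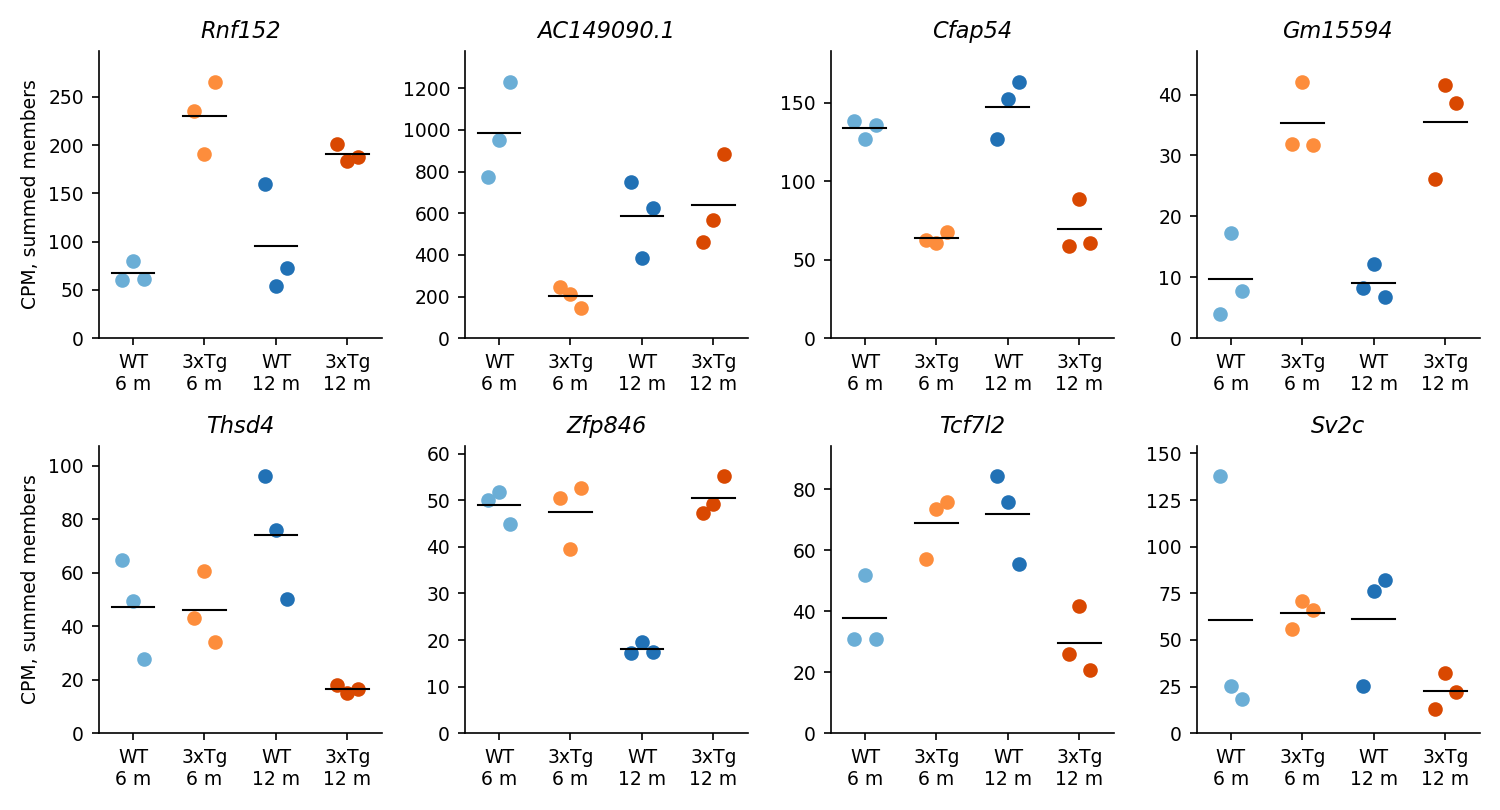
Level of 8 genes in CPM of the summed members of each library, with 3 libraries per group and the group mean as a line. Cfap54 was called lower in 3xTg-AD at both ages, Rnf152 was called higher at 6 months and not at 12 months (0.89), where the genotypes still did not overlap and the interaction was not called (-0.93), and Tcf7l2 lies at 31 to 76 CPM at 6 months and 21 to 84 CPM at 12 months with the genotypes in opposite order.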

How the data were processed

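The authors aligned snRNA-seq reads to mm10 with Cell Ranger 6.1.1, per the labels, and deposited filtered matrices of raw UMI counts per gene and nucleus, before ambient RNA was removed. The genes that define the members, the gene lists and the tests were chosen with earlier results of these data known. No doublet caller was run. Counts were summed per library over members or comparison nuclei and compared by quasi-likelihood F tests in edgeR 4.0.16 (TMM normalization, filterByExpr, Benjamini-Hochberg adjustment over all tested genes, 3 against 3 libraries, or the library as a block). DESeq2 1.42.0 was an alternative. Shares were compared by two-sided exact permutation tests, and relations by 100000 permutations (scipy 1.17.1, numpy 2.4.6, Python 3.11.15, R 4.3.3). Each contrast of nuclei names the 12 called genes per direction with the largest change of the same sign in every library, and each contrast of groups up to 10 per direction by adjusted p, with the marker and pathway lists. Of 32285 features, 32158 had a position in GENCODE vM21. Promoters are from RefSeq. In simulated counts, 79 of 80 genes changed 4-fold (log2 of 2) at 12 months were recovered, but 30 of 106 with a log2 of 1, with 7 false calls. The simulation gave all genes the same dispersion, so recovery of genes that vary more between mice was not measured. Each library is 1 mouse. Some genes, and the results that need them, are not reported here.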

Additional observations from a re-analysis of the deposited data

Results flagged for a closer look

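The difference between 3xTg-AD and WT members changed with age for 3 genes by the interaction test of edgeR. The log2 fold change at 12 months exceeded that at 6 months by 2.36 for AC149090.1 and by 1.56 for Zfp846, and for Tcf7l2 it differed by -2.28. Without 12-month 3xTg-AD replicate 10 none of the 3 was called by edgeR, with differences of 2.06, 1.501 and -1.95 in the same order. Of the 3 calls, 1 was left without 12-month 3xTg-AD replicate 2, 12-month WT replicate 4, 6-month 3xTg-AD replicate 5 or 9, or 6-month WT replicate 3 or 11.

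Of 20 groups of 6 libraries tested for a library apart from the rest with Dixon's criterion, which flags about 1 in 20 by chance, 2 held one, of which 1 is given here. In 6-month 3xTg-AD replicate 9, 17.4% of members held at least 2 choroid plexus or ependymal UMIs, above the other 3xTg-AD libraries.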

How the results depend on the processing

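For the share of members, 3xTg-AD vs WT at 6 months, the difference of 0.0257 percentage points turned to -0.00694 with at least 3 Lmx1a and Lmx1b UMIs, to -0.332 as a percent of Slc17a6 nuclei, to -0.0428 without the members with glial or vascular UMIs and to -0.00718 without those with choroid plexus UMIs, and ran from -0.0853 to 0.113 with 1 library left out. For the share of members, 3xTg-AD vs WT over both ages, it was 0.0128 after thinning. None of these passed its test. Thinning also gave r = 0.297 for the Nr5a1-gated, 0.0832 for the Tcf7l2-gated and 0.522 for the Prox1-gated relation (permutation p = 0.0817), and the last was 0.596 without the 2 farthest libraries. Too few Nr5a1-gated nuclei were left after thinning for the first to be read. With no filter on low counts the calls were 98 (genotype, 6 months), 74 (genotype, 12 months), 46 (interaction), 37 (age, WT), 96 (age, 3xTg-AD) and 234 (Nr4a2). Without the members with glial or vascular UMIs they were 6 for genotype at 6 months, 0 for genotype at 12 months by edgeR, 1 for the interaction, 1 for age in 3xTg-AD and 63 for Nr4a2. Without choroid plexus members they were 14 for genotype at 6 months. Without dopamine members they were 4 for genotype at 12 months, 1 for the interaction, 1 for age in WT and 2 for age in 3xTg-AD, and Slc6a3 had -0.51 against other nuclei. At least 3 Lmx1a and Lmx1b UMIs left 1 interaction call, DESeq2 3 for age in 3xTg-AD, and 1 fit of all libraries gave 13 (genotype, 12 months), 4 (age, WT) and 2 (age, 3xTg-AD). With 1 library left out, calls ran from 7 to 19 (genotype, 6 months, highest without WT replicate 3), 0 to 19 (genotype, 12 months), 0 to 4 (interaction), 0 to 2 (age, WT) and 1 to 36 (age, 3xTg-AD). Calls between members and other Slc17a6 nuclei, 1636 in all, ran from 1558 to 1821. Against the Tcf7l2-gated nuclei alone, which are 16120 of the 28872 other Slc17a6 nuclei, 2428 genes were called. Across the alternatives of the genes named, a call was kept in 117 and lost in 12 for genotype at 6 months, 72 and 30 at 12 months, 34 and 26 for the interaction, 69 and 56 for age in 3xTg-AD, 121 and 13 for Nr4a2 and 185 and 4 against other Slc17a6 nuclei, 1 of the 4 being Slc6a3 with its sign turned. The causes were not tested. Leaving out the choroid plexus or dopamine members was chosen after seeing the data.

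With 3 mice per group and summed members of 407760 to 1636942 UMIs, small changes could not be detected. Mice could not be paired between groups, because each library has its own replicate number and no number is shared between groups. The contrasts of gene levels with Nr5a1-gated nuclei and of Lmx1a-only with Lmx1b-only members were not run, since 52 and 59 nuclei were too few.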
